A study of Mus musculus with 10 samples.

Results

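Immunoglobulins are the antibodies and B cell receptors of the B cell lineage, built from 2 heavy and 2 light chains. Each chain gene is put together in a B cell from a variable (V) segment, in heavy chains a diversity (D) segment, and a joining (J) segment, and its transcript is spliced to a constant (C) gene. The heavy constant gene sets the class: *Ighm* gives IgM, *Ighd* IgD, the *Ighg* genes IgG, *Igha* IgA and *Ighe* IgE, while light chains use the kappa gene *Igkc* or one of the lambda genes. A naive B cell makes IgM and IgD, and class switching replaces them with IgG, IgA or IgE. The progeny of 1 B cell share its rearrangement, while different rearrangements can use the same V segment, so segments with reads do not count rearrangements. In injured skeletal muscle, B cells and antibody-secreting plasma cells are a small part of the immune cells that enter the tissue.

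All genes annotated as C, V, D or J immunoglobulin genes with at least 1 read in any mouse were taken, which gave 147 of the 264 immunoglobulin genes listed and of the 25700 genes listed in all. They comprise 12 of 13 C genes, 124 of 218 V segments, 0 of 19 D segments and 11 of 14 J segments. The other 117 had 0 reads in each of the 10 mice. Immunoglobulin pseudogenes were not among the genes listed.

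The study sequenced mRNA of the regenerating tibialis anterior muscle (TA) to compare mice with and without miR-501, a microRNA, after an injury by cardiotoxin (CTX), a snake venom toxin that destroys myofibers. The 5 control mice are labelled Pax7Cre and wild type, and the 5 others miR-501KO and miR-501 -/-. All were male C57BL/6 mice, aged 12 weeks, whose TA was injected with CTX and taken on day 6 of regeneration. In the conditional deletion of the study (miR-501 ΔMP) the *Pax7* promoter drives Cre in muscle progenitors and their progeny, so other cells of the muscle, immune cells included, would keep the gene. The controls carry Pax7Cre too. The paper describes its RNA sequencing of injured TA for miR-501 ΔMP mice and their control littermates, while the labels do not name the deletion. The gene *Mir501* is not among the genes listed, so its deletion could not be checked on these counts.

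Between 18609222 and 22064583 reads were counted on genes in the Pax7Cre mice and between 20046670 and 24753258 in the miR-501KO mice. Genes of skeletal muscle were abundant in every library: *Acta1*, the actin of skeletal muscle, had 10456 ± 3458 normalized counts (CPM, scaled by TMM; SD, n = 5) in Pax7Cre mice and 11066 ± 1752 (SD, n = 5) in miR-501KO mice. The embryonic myosin gene *Myh3*, made by regenerating fibers, had 1119 ± 267 CPM and 1140 ± 129 CPM (SD, n = 5 each). All 8 muscle genes examined passed the filter on low counts, with a median log2 difference of 0.07 between genotypes (miR-501KO against Pax7Cre, as throughout).

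The immunoglobulin genes held 17747 reads over the 10 mice. In Pax7Cre mice 1 to 5 they held 1622, 2075, 1222, 1640 and 1311 reads, and in miR-501KO mice 1 to 5 they held 2494, 2267, 1892, 1308 and 1916. Scaled by depth alone, that is between 64.4 and 108 CPM, and the genotypes overlapped. Most genes held few reads: 24 genes had exactly 1 read over all mice, 22 had 2, and 44 had at least 10. Reads in all 10 mice were found for 8 genes, which are *Ighm*, *Igha*, *Ighg2c*, *Ighd*, *Ighj1*, *Igkc*, *Iglc2* and *Iglc3*.

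The heavy chain locus on chromosome 12 (chr12:113254830-116000461, GRCm38) held 15189 reads on 71 of its 144 genes. The kappa locus on chromosome 6 (chr6:67555497-70726966) held 2218 reads on 67 of 108 genes, and the lambda locus on chromosome 16 (chr16:19061618-19260859) held 340 on 9 of 12. Constant genes took 94.3% of all immunoglobulin reads, V segments 4.36% and J segments 1.38%. The 3 most read genes, *Ighm*, *Igkc* and *Igha*, together took 88.2%.

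**Figure D1:**
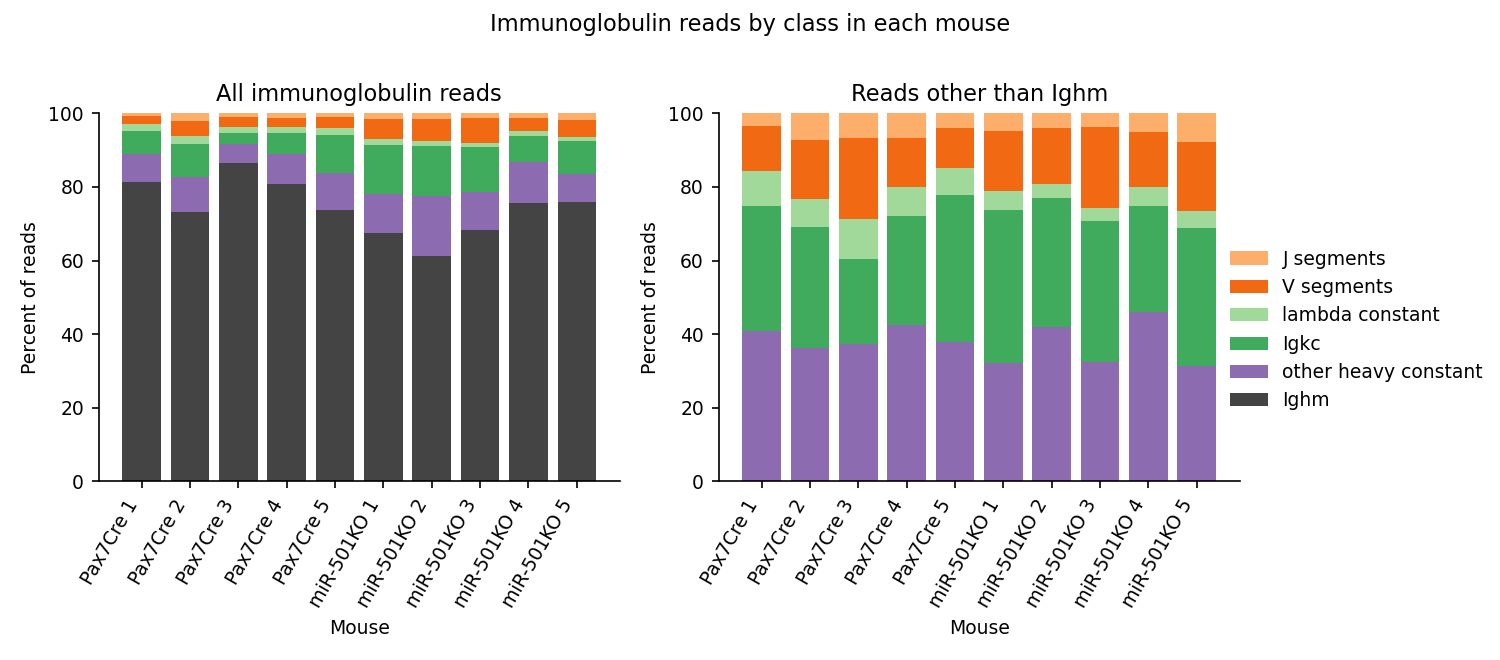
Share of immunoglobulin reads (percent, y axis) held by each class in each of the 10 mice (x axis), for all immunoglobulin reads on the left and for those other than *Ighm* on the right. *Ighm* took between 61.3% and 86.6% of the reads of a mouse, and V segments took between 10.7% and 22.0% of the rest.

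*Ighm* was the most read gene in every mouse. Its share of immunoglobulin reads was 81.4% (95% Wilson interval 79.5% to 83.3%), 73.1% (71.1% to 74.9%), 86.6% (84.6% to 88.4%), 80.9% (78.9% to 82.7%) and 73.7% (71.2% to 76.0%) in Pax7Cre mice 1 to 5. In miR-501KO mice 1 to 5 the share was 67.6% (65.7% to 69.4%), 61.3% (59.3% to 63.3%), 68.4% (66.3% to 70.4%), 75.6% (73.2% to 77.9%) and 75.8% (73.8% to 77.6%). Pax7Cre mouse 3 had the highest share and miR-501KO mouse 2 the lowest, and the genotypes overlapped. These intervals, and the limits given for counts of 0, cover counting error only.

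The level of *Ighm* itself hardly separated the genotypes, with 59.1 ± 12.5 CPM in Pax7Cre and 60.2 ± 6.80 CPM in miR-501KO mice (SD, n = 5 each). Over the 10 mice its coefficient of variation was 15.9%, beside 47.3% for the sum of all other immunoglobulin genes. That sum was 16.2 ± 7.98 CPM in Pax7Cre and 27.0 ± 9.95 CPM in miR-501KO mice (SD, n = 5 each), with miR-501KO mice 1 and 2 above every Pax7Cre mouse. The lower share of *Ighm* in these miR-501KO mice thus came with more reads on the other genes and a similar level of *Ighm*. In whole muscle, fewer cells of a type and less RNA per cell cannot be told apart.

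Among the other heavy constant genes, *Igha*, the constant gene of IgA, was the most read. It had 48, 114, 7, 59 and 45 reads in Pax7Cre mice 1 to 5 and 167, 230, 110, 85 and 97 reads in miR-501KO mice 1 to 5. The lowest count was in Pax7Cre mouse 3 and the highest in miR-501KO mouse 2, and Pax7Cre mouse 2 lay within the range of the miR-501KO mice. Of the reads on switched classes (heavy constant genes other than *Ighm* and *Ighd*), *Igha* took 53.3% (43.1% to 63.3%), 63.0% (55.7% to 69.7%), 20% (10.04% to 35.9%), 60.8% (50.9% to 69.9%) and 44.6% (35.2% to 54.3%) in Pax7Cre mice 1 to 5. In miR-501KO mice 1 to 5 it took 76.3% (70.2% to 81.4%), 67.3% (62.1% to 72.0%), 67.5% (59.96% to 74.2%), 68.5% (59.9% to 76.1%) and 77.0% (68.9% to 83.5%). The shares of the genotypes did not overlap, but the intervals of Pax7Cre mice 1, 2 and 4 overlapped those of several miR-501KO mice. No test was made of a share over genes chosen with earlier results known.

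IgG genes took nearly all other switched reads, between 37.0% and 80.0% in Pax7Cre and between 22.2% and 32.7% in miR-501KO mice. Their summed level was 2.23 ± 0.887 CPM in Pax7Cre and 2.56 ± 1.58 CPM in miR-501KO mice (SD, n = 5 each), so the lower share of IgG stood beside a similar level and more *Igha*. *Ighg2c*, which C57BL/6 mice carry in place of *Ighg2a*, led with 338 reads. It had 29, 49, 26, 32 and 31 reads in Pax7Cre mice 1 to 5 and 30, 65, 20, 37 and 19 reads in miR-501KO mice 1 to 5. Mouse 2 of each genotype was the highest of its group, and the groups overlapped.

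*Ighg2b* came next, with 136 reads over the mice. The counts were 9, 9, 2, 4 and 24 in Pax7Cre mice 1 to 5 and 15, 46, 18, 0 and 9 in miR-501KO mice 1 to 5. In miR-501KO mouse 4 a count of 0 allows up to 3 reads, which is 0.1497 CPM scaled by depth alone and 0.159 CPM scaled by TMM. *Ighg1* had 27 reads over the 10 mice, of which 13 were in miR-501KO mouse 3 and 9 in Pax7Cre mouse 2. *Ighg3* had 13 reads and *Ighe*, the gene of IgE, had 2. *Ighd*, which naive B cells express with *Ighm*, had 20 to 40 reads in each mouse.

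Kappa was the leading light chain. *Igkc* had 102, 184, 38, 93 and 137 reads in Pax7Cre mice 1 to 5 and 337, 309, 229, 92 and 174 reads in miR-501KO mice 1 to 5. By reads, Pax7Cre mouse 3 was lowest and miR-501KO mice 1 and 2 were highest, while miR-501KO mice 4 and 5 lay among the Pax7Cre mice. Scaled by TMM, miR-501KO mouse 3 lay slightly below Pax7Cre mouse 2 as well. *Igkc* took 77.9% (70.0% to 84.1%), 81.1% (75.5% to 85.6%), 67.9% (54.8% to 78.6%), 79.5% (71.3% to 85.8%) and 84.0% (77.7% to 88.9%) of the reads on light constant genes in Pax7Cre mice 1 to 5. In miR-501KO mice 1 to 5 the share was 89.2% (85.6% to 91.9%), 90.6% (87.1% to 93.3%), 91.6% (87.5% to 94.4%), 85.2% (77.3% to 90.7%) and 89.2% (84.1% to 92.8%). Each miR-501KO mouse had a higher kappa share than each Pax7Cre mouse, but many intervals overlapped. The interval of Pax7Cre mouse 5 overlapped those of all miR-501KO mice, and that of miR-501KO mouse 4 overlapped those of all Pax7Cre mice.

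The lambda constant genes had 271 reads in sum and did not share this pattern, with 1.35 ± 0.539 CPM in Pax7Cre and 1.15 ± 0.389 CPM in miR-501KO mice (SD, n = 5 each). *Iglc3* led with 150 reads and had 8 to 24 in each mouse. *Iglc1* was uneven, with 1, 23, 0, 1 and 9 reads in Pax7Cre mice 1 to 5 and 6, 11, 4, 1 and 6 in miR-501KO mice 1 to 5. Its highest count was in Pax7Cre mouse 2. *Iglc2* and *Iglc3* share 94.5% of the aligned bases of their last exon and *Iglc1* and *Iglc3* 67.8%, and *Iglc4* had 0 reads. *Iglc3* overlaps exons of another gene on the opposite strand, and *Iglc2* overlaps *Iglj2* on the same strand.

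To ask whether any of these genes differed between genotypes, all 14410 genes that passed the filter on low counts were fitted together with edgeR's quasi-likelihood test. Of the immunoglobulin genes, 6 passed the filter (*Ighm*, *Igkc*, *Igha*, *Ighg2c*, *Ighd* and *Iglc3*), and 0 had an adjusted p under 0.05, beside 0% of all genes tested. DESeq2 also called 0 genes. At an unadjusted p under 0.05, *Igha* and *Igkc* were higher in miR-501KO mice, 2 of the 6, beside 0.382% of all genes, and 0 of the 6 were lower, beside 0.666%. A likelihood ratio test with trended dispersion, which does not let the variance differ from gene to gene around the trend, called 19 genes at an adjusted p under 0.05, of which 11 were higher (0.0763% of those tested) and included *Igha* and *Igkc*. The levels of the genotypes overlapped for each of the 6 genes, while they did not for 0.139% of all genes.

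*Igha* had 2.15, 6.02, 0.370, 2.37 and 2.20 CPM in Pax7Cre mice 1 to 5 and 6.68, 10.9, 4.58, 4.50 and 4.11 CPM in miR-501KO mice 1 to 5. All miR-501KO mice lay above 4 of the Pax7Cre mice, and 2 lay above Pax7Cre mouse 2 as well. Its log2 fold change was 1.23 (SE 0.465; edgeR unadjusted p = 0.0202, adjusted p = 1.00), and an exact two-sided permutation test gave p = 0.0317 (n = 5 each). For *Igkc* the log2 fold change was 0.91 (SE 0.369; edgeR unadjusted p = 0.0290, adjusted p = 1.00), with an exact permutation p of 0.0714 (n = 5 each). Without miR-501KO mouse 2, 0 of the 6 genes had an unadjusted p under 0.05, with a log2 fold change of 0.93 for *Igha* and 0.73 for *Igkc*. Without Pax7Cre mouse 1, 3 or 4 or without miR-501KO mouse 1, only 1 immunoglobulin gene was under this limit. The smallest exact p that 5 mice against 5 allow is 0.00794.

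The other 4 tested genes were close to no difference: the log2 fold change was 0.03 for *Ighm* (exact permutation p = 0.905, n = 5 each), -0.04 for *Ighg2c*, -0.09 for *Iglc3* and -0.16 for *Ighd*. The median of the 6 genes was -0.01, beside 0.00 over all genes tested. Of the 11 immunoglobulin genes with at least 50 reads that were named by rule, *Igha* alone had an exact permutation p under 0.05. This test was made for named genes only, so no share of all genes stands beside this count, and nothing is concluded from it. Without the filter on low counts all 147 genes entered the edgeR fit, and 0 were called. Of these, 11 were higher and 2 lower at an unadjusted p under 0.05, beside 0.771% and 0.801% of the 19854 genes of that fit. The median log2 fold change of the 147 was 0.64, beside -0.01 over all genes of that fit. Membership needs only 1 read in any mouse, so the group with more V reads brings in more members. Neither these counts of higher and lower genes nor this median is thus a measure of the genotypes.

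**Figure D2:**
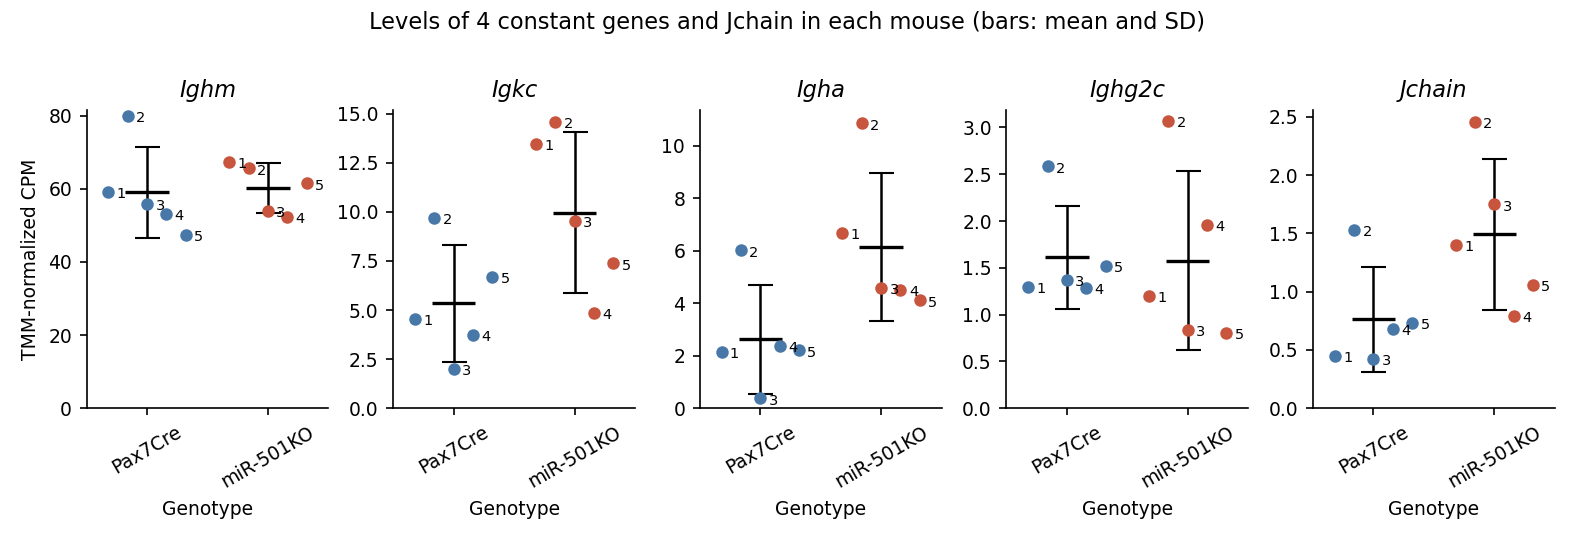
Level of *Ighm*, *Igkc*, *Igha*, *Ighg2c* and *Jchain* (TMM-normalized CPM, y axes starting at 0) by genotype (x axis), with a numbered point for each mouse and the mean and SD as bars. *Igha* and *Igkc* lie higher in most miR-501KO mice with Pax7Cre mouse 2 among them, while *Ighm* and *Ighg2c* overlap widely.

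Per length of exon the order of the genes changed. *Ighm* had 6892 reads per kilobase over the 10 mice and *Igkc* 3186, while *Igha*, with long exons, had 361 and *Iglc3* 332. *Ighm* per kilobase exceeded *Igkc* per kilobase in all 10 mice, by 1.27 times in miR-501KO mouse 2 to 7.85 times in Pax7Cre mouse 3. V reads were scarce beside *Ighm*: heavy chains had 271 V reads, 1.84 for every 100 heavy constant reads, or 15.4 for every 100 reads on heavy constant genes other than *Ighm*. Over the 10 mice, kappa chains had 27.1 V reads for every 100 *Igkc* reads, and lambda chains 15.9 for every 100 lambda constant reads. The kappa value ran from 13.9 in Pax7Cre mouse 5 to 81.6 in Pax7Cre mouse 3. An exon model per gene does not tell transcripts with a V segment from constant transcripts without one.

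V segments held 774 reads over the 10 mice: 460 on kappa, 271 on heavy and 43 on lambda segments. There were 37, 89, 36, 42 and 37 V reads in Pax7Cre mice 1 to 5 and 133, 134, 131, 48 and 87 in miR-501KO mice 1 to 5. As a level this was 2.35 ± 1.32 CPM and 4.67 ± 1.52 CPM (SD, n = 5 each), with miR-501KO mice 1, 2 and 3 above every Pax7Cre mouse. MiR-501KO mouse 4 lay within the Pax7Cre range, and Pax7Cre mouse 2 above miR-501KO mice 4 and 5. V segments took between 2.28% and 4.29% of immunoglobulin reads in Pax7Cre and between 3.67% and 6.92% in miR-501KO mice. Of the reads other than *Ighm* they took 14.9% ± 4.39 and 17.5% ± 2.87 (SD, n = 5 each), which overlapped.

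Reads of a V segment were mostly found in few mice. Of the 124 segments, 41 had reads in 1 mouse, 16 in at least 5 mice and 0 in all 10, and 24 had at least 10 reads. *Iglv1*, the most read of the 3 lambda segments with 34 reads, and *Igkv10-96*, with 16 reads, were found in 8 mice each. Pax7Cre mice had reads on 85 segments and miR-501KO mice on 103, and the 64 found in both are 75.3% of the first and 62.1% of the second. The V reads also numbered 241 and 533, so the second group had more chances to show a segment.

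The most read V segment differed from mouse to mouse. In Pax7Cre mouse 1 *Igkv1-110* led with 5 of 37 V reads (13.5%, 5.91% to 28.0%). *Igkv4-72* and *Igkv8-19* shared the lead in Pax7Cre mouse 2 with 6 of 89 each (6.74%, 3.13% to 13.9%). Pax7Cre mouse 3 had 13 of its 36 V reads on *Igkv1-110* (36.1%, 22.5% to 52.4%). The leading share was thus high in Pax7Cre mouse 3 alone among these, and its V reads were the fewest. *Ighv7-4* led in Pax7Cre mouse 4 with 4 of 42 (9.52%, 3.77% to 22.1%). In Pax7Cre mouse 5 *Ighv8-12*, *Igkv10-96* and *Iglv1* were level with 3 of 37 each (8.11%, 2.80% to 21.3%).

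Among the miR-501KO mice, *Igkv1-117* led in mouse 1 with 35 of 133 V reads (26.3%, 19.6% to 34.4%) and in mouse 2 with 30 of 134 (22.4%, 16.2% to 30.2%). *Igkv4-59* led in mouse 3 with 13 of 131 (9.92%, 5.89% to 16.2%) and had 0 reads in every other mouse. *Ighv5-17* led in mouse 4 with 9 of 48 (18.8%, 10.2% to 31.9%). *Igkv6-23* led in mouse 5 with 9 of 87 (10.3%, 5.54% to 18.5%). Ties included, 11 segments led in at least 1 mouse, and only *Igkv1-110* and *Igkv1-117* led in more than 1. At least 10% of the V reads of some mouse were on 7 segments, which were these together with *Ighv1-72*, *Ighv5-17*, *Igkv6-23*, *Igkv8-27* and *Igkv8-30*.

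**Figure D3:**
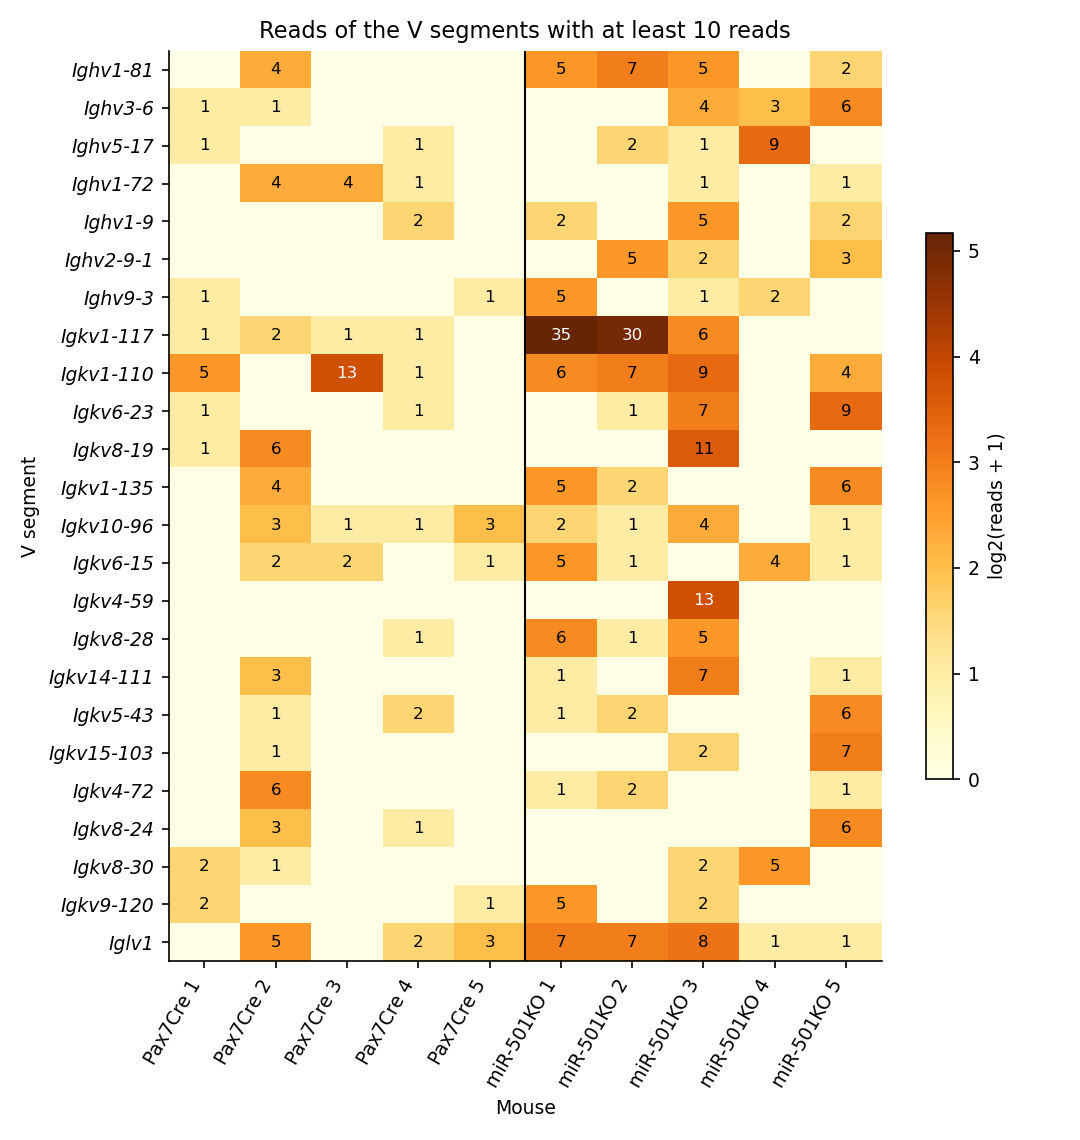
Reads of the 24 V segments with at least 10 reads over the 10 mice (y axis) in each mouse (x axis), with the count printed in each cell, blank for 0, and the color giving log2(reads + 1). *Igkv1-117* stands out with 35 and 30 reads in miR-501KO mice 1 and 2, *Igkv1-110* with 13 in Pax7Cre mouse 3 and *Igkv4-59* with 13 in miR-501KO mouse 3.

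The 3 most read segments of a mouse together held 29.7%, 19.1%, 61.1%, 21.4% and 24.3% of its V reads in Pax7Cre mice 1 to 5 and 36.1%, 32.8%, 25.2%, 37.5% and 25.3% in miR-501KO mice 1 to 5. The 10 most read held between 49.4% and 94.4% in Pax7Cre and between 58.0% and 83.3% in miR-501KO mice. Over all V segments, only in Pax7Cre mouse 3 did 3 segments hold most of the V reads. With V segments of at least 5 reads only, they also did in miR-501KO mouse 4 (52.9%, beside 66.7% in Pax7Cre mouse 3). The inverse Simpson number, which counts how many equally read segments would give the same concentration, was 18.3, 26.9, 5.45, 23.8 and 21.7 in Pax7Cre mice 1 to 5. In miR-501KO mice 1 to 5 it was 11.2, 13.7, 22.0, 11.3 and 19.8. Low numbers thus occurred in both genotypes, in Pax7Cre mouse 3 and miR-501KO mice 1, 2 and 4, and the groups overlapped.

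Mice with few V reads show fewer segments, so the number of segments was also computed for 36 reads drawn from each mouse, the count of the shallowest. This gave 25.5, 23.6, 12.0, 26.9 and 26.5 segments in Pax7Cre mice 1 to 5 and 20.5, 21.2, 21.5, 15.8 and 21.4 in miR-501KO mice 1 to 5. At equal depth 4 Pax7Cre mice thus showed more segments than each miR-501KO mouse, and Pax7Cre mouse 3 showed the fewest of all. With 36 to 134 V reads in a mouse, a single read is 0.746% to 2.78% of them, and 0 reads of a segment allow a share of up to 8.33% in Pax7Cre mouse 3 and 2.24% in miR-501KO mouse 2.

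**Figure D4:**
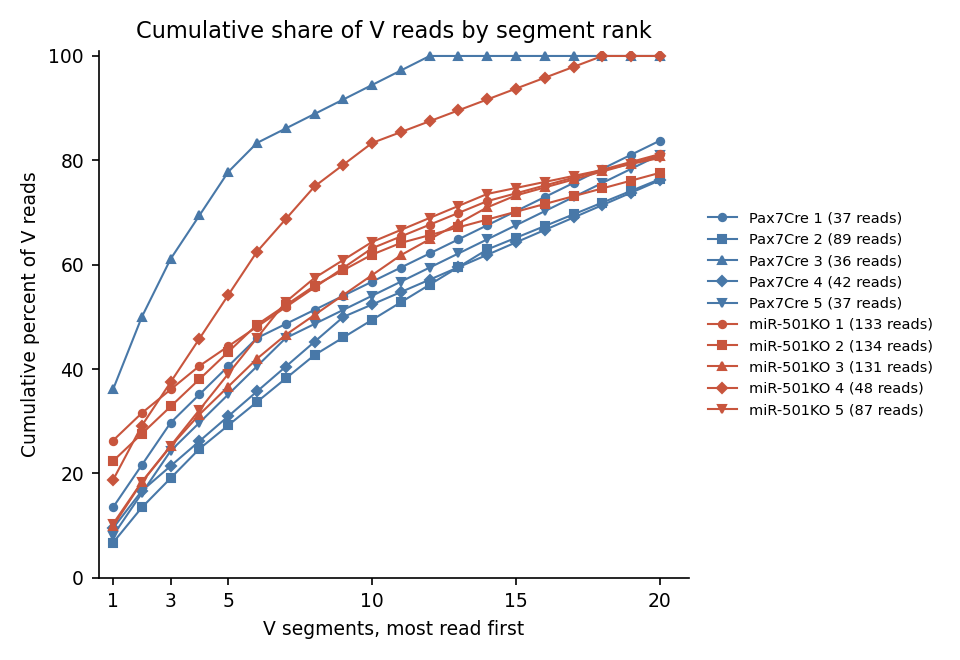
Cumulative share of V reads (percent, y axis) over the V segments of each mouse ordered from the most read (x axis, first 20), with a line for each mouse in blue for Pax7Cre and red for miR-501KO. Pax7Cre mouse 3 reaches 61.1% with 3 segments and miR-501KO mouse 4 reaches 83.3% with 10, above the other 8 mice at that rank.

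*Igkv1-117* and *Igkv1-110* are neighbors in sequence, and they hold the largest counts of any V segments, so their sequences are shown. Over the first 300 bases of the variable exon, 290 are identical. Capitals mark the 10 bases that differ. *Igkv1-117* lies at chr6:68121515-68121814 and *Igkv1-110* at chr6:68270955-68271254 (GRCm38, plus strand; transcripts of GENCODE M21).
Igkv1-117: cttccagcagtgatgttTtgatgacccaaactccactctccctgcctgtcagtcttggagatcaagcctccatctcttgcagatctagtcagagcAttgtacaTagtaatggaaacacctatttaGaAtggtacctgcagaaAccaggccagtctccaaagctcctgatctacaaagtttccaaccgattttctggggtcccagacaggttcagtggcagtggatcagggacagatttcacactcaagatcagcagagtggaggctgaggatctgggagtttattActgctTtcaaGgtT
Igkv1-110: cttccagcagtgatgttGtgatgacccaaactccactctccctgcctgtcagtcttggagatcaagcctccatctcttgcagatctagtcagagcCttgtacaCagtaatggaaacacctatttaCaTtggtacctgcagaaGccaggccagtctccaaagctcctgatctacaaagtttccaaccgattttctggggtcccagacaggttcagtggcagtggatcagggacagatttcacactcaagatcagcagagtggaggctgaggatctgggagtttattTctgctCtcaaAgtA

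Of the stretches of 100 bases, the read length, 16.1% of those in *Igkv1-117* and 16.2% of those in *Igkv1-110* occur in the other, so a part of the reads could fall on either. *Igkv1-117* had 1, 2, 1, 1 and 0 reads in Pax7Cre mice 1 to 5 and 35, 30, 6, 0 and 0 reads in miR-501KO mice 1 to 5. *Igkv1-110* had 5, 0, 13, 1 and 0 reads in Pax7Cre mice 1 to 5 and 6, 7, 9, 0 and 4 reads in miR-501KO mice 1 to 5. *Igkv1-110* was thus highest in Pax7Cre mouse 3, by count and by share of V reads, and 71 of the 76 reads of *Igkv1-117* came from 3 miR-501KO mice. An exact permutation test of the level of *Igkv1-117* gave p = 0.167 (n = 5 each). A gene needed at least 50 reads over the 10 mice for this test. *Igkv1-117* had 5 reads in all Pax7Cre mice together and met this limit through the miR-501KO mice. No conclusion on the genotypes is therefore drawn from this p. Together *Igkv1-117* and *Igkv1-110* took 46.1% and 50.7% of the kappa V reads in miR-501KO mice 1 and 2 and 45.2% in Pax7Cre mouse 3. Pax7Cre mouse 5 and miR-501KO mouse 4 had 0 reads on either.

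By family, *Igkv1* held 30% of the kappa V reads on 3 of its 10 listed segments, although it makes up 9.80% of the kappa segments listed. The largest kappa family, *Igkv4*, held 18.3% on 17 of 26 segments and makes up 25.5% of those listed. The counts of *Igkv1* per mouse, 6, 6, 14, 2 and 0 in Pax7Cre and 46, 39, 15, 0 and 10 in miR-501KO mice 1 to 5, mostly follow those of *Igkv1-117* and *Igkv1-110*. *Igkv4* was spread more evenly, with reads in all 10 mice and at most 17 in any. Among heavy segments the largest family, *Ighv1*, held 52.8% of the reads on 32 of 53 segments and makes up 46.9% of those listed. *Ighv5* came next with 11.4% of the heavy V reads, most of them in miR-501KO mice 2 and 4.

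Heavy V reads were few, with 5 to 35 in a Pax7Cre mouse and 27 to 53 in a miR-501KO mouse. *Ighv1-81* led with 23 reads, found as 4 in Pax7Cre mouse 2 and as 5, 7, 5 and 2 in miR-501KO mice 1, 2, 3 and 5. *Ighv3-6* followed with 15 and *Ighv5-17* with 14. With the reads of the 10 mice pooled, the 3 most read heavy segments held 19.2% of the heavy V reads, beside 30.4% for kappa. Within single mice this difference was not seen. The first 3 segments of a mouse held 34.9% to 100% of its heavy V reads (median 43.8%) and 27.8% to 67.7% of its kappa V reads (median 41.2%). In no mouse did the leading heavy segment exceed 9 reads.

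Segments with reads lay in both parts of the heavy and kappa loci. Of the 56 heavy V segments nearest to the constant genes 26 had reads, and of the 57 farther ones 33, with 46.1% of the heavy V reads in the nearer part. For kappa, 34 of the 51 nearer segments and 28 of the 51 farther ones had reads, with 42.8% of the kappa V reads in the nearer part. Kappa segments lie on both strands, and those on the plus strand, the strand of *Igkc*, had reads for 23 of 38, beside 39 of 64 on the minus strand. By sequence, 40.3% of the V segments with reads share at least 1 stretch of 100 bases with another segment, and so do 39.4% of the 94 with 0 reads.

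J segments held 245 reads, 156 on heavy, 63 on kappa and 26 on lambda segments. All but *Ighj2*, with 100 exon bases, are shorter than a read, so a read counted on them reaches into a neighboring part of the transcript. All 4 heavy J segments had reads: 52 on *Ighj4*, 45 on *Ighj1*, 43 on *Ighj2* and 16 on *Ighj3*. *Ighj1* was found in all 10 mice with 1 to 8 reads in each. *Ighj2* was uneven, with 0, 9, 0, 8 and 0 reads in Pax7Cre mice 1 to 5 and 7, 9, 1, 0 and 9 in miR-501KO mice 1 to 5. In Pax7Cre mice 1 to 5 *Ighj4* had 0, 7, 5, 4 and 0 reads. In miR-501KO mice 1 to 5 it had 7, 3, 8, 8 and 10, and was thus found in each. J segments held 97 reads in Pax7Cre and 148 in miR-501KO mice, so the second group had more chances to show a segment. An exact permutation test of the level of *Ighj4* gave p = 0.119 (n = 5 each). *Ighj4* met the read limit for this test through the miR-501KO mice, so no conclusion on the genotypes is drawn from this p.

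The heavy J segments end the variable domain, and their sequences are shown since together they hold most J reads. Capitals mark TGGGG, found in 4 of 4 heavy and 0 of 10 light J segments on either strand, beside 9.24% of 1450 windows of 50 bases in the V segments listed. All lie on the minus strand of chromosome 12: *Ighj1* at chr12:113429781-113429833, *Ighj2* at chr12:113429468-113429515, *Ighj3* at chr12:113429085-113429132 and *Ighj4* at chr12:113428514-113428567 (GRCm38, transcripts of GENCODE M21). For *Ighj2* a shorter transcript is shown, with 48 of the 100 exon bases counted.
Ighj1: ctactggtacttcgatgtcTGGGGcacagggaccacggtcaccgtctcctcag
Ighj2: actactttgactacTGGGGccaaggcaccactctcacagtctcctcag
Ighj3: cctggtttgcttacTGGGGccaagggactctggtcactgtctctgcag
Ighj4: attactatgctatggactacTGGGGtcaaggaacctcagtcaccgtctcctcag

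Among kappa J segments *Igkj1* led with 26 reads, followed by *Igkj2* with 15 and by *Igkj4* and *Igkj5* with 11 each, and *Igkj3* had 0. *Igkj1* had 8, 7 and 5 reads in miR-501KO mice 1, 2 and 3 and 2 in each of Pax7Cre mice 2, 3 and 4. Of the lambda J reads *Iglj1* held 13, *Iglj2* 7 and *Iglj3* 6, and *Iglj3p* and *Iglj4* had 0. The 19 D segments had 0 reads among 17747, which allows a share of up to 0.0169%. D segments are the shortest of all, so a count of 0 was not a measure of their use.

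Of 16 B cell markers, all listed and with reads, 9 passed the filter, 0 were called by edgeR, and 0 had an unadjusted p under 0.05, beside 0.382% of all genes higher and 0.666% lower. Their median log2 difference was -0.03, beside 0.00 over all genes tested. The summed level was 95.7, 86.5, 87.9, 103 and 86.5 CPM in Pax7Cre mice 1 to 5 and 88.2, 102, 85.6, 81.9 and 86.7 CPM in miR-501KO mice 1 to 5, which overlapped. The most abundant per kilobase was *Cd37*, a tetraspanin that other leukocytes express too. Markers more specific to B cells were scarce: *Ms4a1*, which encodes CD20, had 58 reads over the 10 mice, and *Cd79a*, of the B cell receptor, had 126.

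*Pax5*, the transcription factor that sets B cell identity, had too few reads for the filter (66 over the 10 mice). Its level was 0.224, 0.211, 0, 0.321 and 0.294 CPM in Pax7Cre mice 1 to 5 and 0.480, 0.330, 0.333, 0.318 and 0.424 CPM in miR-501KO mice 1 to 5. An exact permutation test gave p = 0.0159 (n = 5 each), and 4 miR-501KO mice lay above all Pax7Cre mice. This is 1 of 3 genes with an exact p under 0.05 among 83 tested, not adjusted for their number, with *Igha* and *Dedd* as the others.

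Of 12 plasma cell markers, 9 passed the filter, 0 were called by edgeR and 1 was higher at an unadjusted p under 0.05, beside 0.382% of all genes. That gene was *Jchain*, the joining chain of secreted IgA and IgM. *Jchain* had 0.448, 1.53, 0.423, 0.682 and 0.735 CPM in Pax7Cre mice 1 to 5 and 1.40, 2.45, 1.75, 0.795 and 1.06 CPM in miR-501KO mice 1 to 5. Its log2 fold change was 0.98 (SE 0.378; edgeR unadjusted p = 0.0227, adjusted p = 1.00; exact permutation p = 0.0794, n = 5 each). As for *Igha*, Pax7Cre mouse 2 was the highest of its group and lay among the miR-501KO mice. *Mzb1*, a chaperone of antibody secretion, had 0.378 ± 0.213 and 0.5001 ± 0.0463 CPM, and *Tnfrsf17*, the receptor BCMA, had 0.453 ± 0.187 and 0.252 ± 0.127 CPM (SD, n = 5 each), so their means did not differ in the same direction.

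The plasma cell list had a median log2 difference of 0.05 and summed to between 314 and 455 CPM in Pax7Cre and between 381 and 446 CPM in miR-501KO mice. Its most abundant gene per kilobase was *Txndc5*, a folding enzyme of the secretory pathway at 229 ± 40.5 and 236 ± 19.8 CPM (SD, n = 5 each), so the sum says little of plasma cells. Genes of B cell development and recombination were at or near 0: *Rag2* and *Vpreb2* had 0 reads in all mice, and *Rag1* and *Igll1* had 2 each. Of these 8 genes only the repair gene *Ung*, which many cells express, passed the filter, and it was also the most abundant per kilobase.

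Among 11 receptors and carriers of immunoglobulins, 7 passed the filter, 0 were called and 0 had an unadjusted p under 0.05, with a median log2 difference of 0.06. The most abundant per kilobase was *Fcer1g*, the signaling chain of Fc receptors. *Fcgrt*, which protects IgG from breakdown, had 107 ± 6.35 and 99.2 ± 7.98 CPM (SD, n = 5 each). *Pigr*, which carries IgA and IgM across epithelia, had 1 read over the 10 mice. Their sum lay between 619 and 851 CPM in Pax7Cre and between 613 and 810 CPM in miR-501KO mice.

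Of 7 survival and homing ligands of B cells, 4 passed the filter, 0 were called and 0 were higher on average, with a median log2 difference of -0.14 and 0 genes under an unadjusted p of 0.05. *Cxcl12*, the most abundant per kilobase, had 229 ± 19.4 and 212 ± 14.7 CPM, and *Tnfsf13b*, which encodes BAFF, had 2.40 ± 0.568 and 2.06 ± 0.332 CPM (SD, n = 5 each). The sum of the list was between 242 and 288 CPM in Pax7Cre and between 223 and 259 CPM in miR-501KO mice, which overlapped. Genes of follicle and lymph node stroma were near 0: of 6 genes 5 were listed, 0 passed the filter, *Ccl21a* had 0 reads and *Fdcsp* was not listed. Their sum stayed between 0.333 and 0.844 CPM in all mice, with *Cxcl13* the most abundant per kilobase.

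Other blood and immune cells can carry or bind immunoglobulins. Blood genes were higher in the mean of the miR-501KO mice for all 5 of 5 genes tested, with a median log2 difference of 0.75, 0 called by edgeR and 0 under an unadjusted p of 0.05. Their sum was 66.9, 150, 180, 55.5 and 74.1 CPM in Pax7Cre mice 1 to 5 and 138, 400, 144, 71.7 and 68.7 CPM in miR-501KO mice 1 to 5. The mean of the miR-501KO mice was 165 CPM, and without miR-501KO mouse 2 it was 106 CPM, beside 105 CPM in Pax7Cre mice, so the difference rested on that mouse. The hemoglobin gene *Hbb-bs* was the most abundant per kilobase. MiR-501KO mouse 2, which had the most *Igha*, *Igkc* and *Jchain*, was also highest in blood genes, while Pax7Cre mouse 3, second in blood genes, had the least *Igha* and *Igkc*. The part of blood in the immunoglobulin reads was not tested.

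For T cell genes, 9 of 9 were tested, with 0 called, 0 under an unadjusted p of 0.05 and a median log2 difference of 0.05. They summed to between 50.8 and 85.6 CPM in Pax7Cre and between 42.9 and 68.9 CPM in miR-501KO mice, with *Cd4*, which macrophages can express as well, the most abundant per kilobase. Pax7Cre mouse 2, the highest of its group in *Igha*, *Igkc* and *Ighm*, was also highest in T cell genes. All 6 macrophage genes were tested, 0 were called, 0 had an unadjusted p under 0.05 and the median log2 difference was 0.02. Their sum was 5301 ± 602 and 5312 ± 398 CPM (SD, n = 5 each), led per kilobase by *Lyz2*. The part of T cells and macrophages in the immunoglobulin levels was not tested either.

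The genes whose log2 CPM followed *Igkc* most closely over the 10 mice, outside the immunoglobulin genes, were *Rbm4*, *Tnfaip2*, *Wbp1*, *Dedd* and *Jchain*. For *Rbm4*, an RNA-binding protein, Pearson's r was 0.945 and Spearman's rho 0.879, and r was 0.871 without Pax7Cre mouse 3 and miR-501KO mouse 2, the farthest from the median of *Igkc*. *Jchain* had r 0.903, rho 0.927 and r 0.846 without these mice. *Tnfaip2* had r 0.929, *Wbp1* 0.915 and *Dedd* 0.914, and 0.846, 0.781 and 0.843 without them. These 5 were picked as the highest r among all genes tested, over 10 mice of 2 genotypes and unequal depth, and are given as a description. *Rbm4* varied little, with 18.3 ± 1.53 and 20.4 ± 1.32 CPM (SD, n = 5 each), while the level of *Igkc* spanned 2.01 to 14.6 CPM.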

How the data were processed

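Stranded mRNA libraries of TA muscle from 10 mice were sequenced as single-end reads. Per the methods and the submitters' processing notes, the authors aligned the reads with STAR to GRCm38.p5 and counted them with featureCounts in R 3.5.1. The values are the counts as deposited by the authors, 1 whole number per gene and mouse, without normalization. The strand setting and the treatment of reads that match several genes are not stated, so similar segments may share reads, and genes that overlap on opposite strands may too.

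Annotation came from GENCODE M21 (GRCm38), joined on Ensembl identifiers, which found 25587 of the 25700 genes. Members and gene lists were chosen with earlier results of these data known. Groups were taken from the labels, and libraries of a group differed by more than counting noise (chi-square per degree of freedom at least 9.51). Whether equal mouse numbers are pairs is not stated.

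TMM factors, the filter (filterByExpr, minimum count 10, minimum total 15) and the quasi-likelihood test are those of edgeR 4.0.16 under R 4.3.3, with Benjamini-Hochberg adjustment. The fit was tested on simulated data. Single genes with at least 50 reads had an exact two-sided permutation test of mean CPM over all 252 assignments (Python 3.11.15). Wilson intervals (95%) came from SciPy 1.17.1. Depths of 18609222 to 24753258 reads make 3 reads, the limit given for a count of 0, worth 0.121 to 0.161 CPM scaled by depth alone.

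Named genes are the immunoglobulin genes that passed the filter, all constant genes, the 3 most read genes of each class, the leading heavy, kappa and lambda V segments of each mouse, the marker lists, and the 5 genes closest to *Igkc*. *Igkv8-27*, *Ighj3*, *Igkj5* and genes at 0 reads were named after their values were seen. Alternatives were DESeq2 size factors, DESeq2 1.42.0, leaving out the filter, a filter of 10 counts in all mice, the likelihood ratio test, a replicate block, leaving out each mouse, leaving out *Ighm* or overlapping genes, reads per kilobase, and V segments with at least 5 reads.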

Additional observations from a re-analysis of the deposited data

Results flagged for a closer look

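A mouse far from the 4 others of its genotype was looked for in 37 quantities, as a gap to the nearest mouse above 0.71 of the range of the group (Dixon's limit for 5 samples). This marked 12 of 74 groups, where chance alone marks about 1 in 20, or 3.7. Pax7Cre mouse 2 was the far mouse in 7 of the 12. Many of the quantities share genes, so they are not independent.

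Pax7Cre mouse 2 was highest in summed immunoglobulin level at 109 CPM, beside 64.2 to 72.6 in the other Pax7Cre mice. Its V segments summed to 4.70 CPM beside 1.66 to 1.90, and its J segments to 2.16 CPM beside 0.448 to 0.842. *Ighg2c* was at 2.59 CPM beside 1.28 to 1.52, and the lambda constant genes at 2.27 CPM beside 0.951 to 1.30. The same mouse was lowest in *Ighd*, with 1.11 CPM beside 1.37 to 1.48, and in the plasma cell list, with 314 CPM beside 416 to 455. Its TMM factor, 0.884, was the lowest of the 10 mice.

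In Pax7Cre mouse 3, with 36 V reads, the leading V segment held 36.1% of them beside 6.74% to 13.5% in the other Pax7Cre mice, and the first 3 held 61.1% beside 19.1% to 29.7%. The IgG constant genes of miR-501KO mouse 2 summed to 5.29 CPM beside 1.19 to 2.21 in the other miR-501KO mice, and its blood genes to 400.4 CPM beside 68.7 to 144. T cell genes were lowest in miR-501KO mouse 4, with 42.9 CPM beside 61.6 to 68.9. The causes were not tested.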

How the results depend on the processing

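The likelihood ratio test with trended dispersion called 19 genes, 2 of them immunoglobulin genes (*Igha* and *Igkc*), where edgeR's quasi-likelihood test called 0. DESeq2, the other scalings and filters and each fit without 1 mouse called 0 genes as well. With the mouse number as a replicate block 0 genes were called, with 87 higher and 102 lower at an unadjusted p under 0.05 in place of 55 and 96. Deviations of mice of equal number had r from -0.30 to 0.34, with mice 1 and mice 5 each other's closest partners, and no pairing is stated.

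With 1 mouse left out, the log2 fold change ran from -0.44 to 0.18 for *Ighg2c*, from -0.044 to 0.16 for *Ighm* and from -0.27 to 0.047 for *Iglc3*, so these have no fixed direction. *Igha* stayed between 0.93 and 1.76 and *Igkc* between 0.71 and 1.23. Genes at an unadjusted p under 0.05 numbered 267 higher and 186 lower without Pax7Cre mouse 2, 228 and 242 without Pax7Cre mouse 4, 39 and 59 without miR-501KO mouse 1, 153 and 159 without the filter, 36 and 100 with at least 10 counts in all mice, and 123 and 131 by the likelihood ratio test.

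Values below are means of Pax7Cre and of miR-501KO mice. Without *Ighm* the summed level was 16.2 and 27.0 CPM, the constant share 79.5% and 77.4%, the V share 14.9% and 17.5% and the J share 5.63% and 5.06%. Per kilobase the constant share was 67.2% and 60.5%, the V share 8.39% and 12.9%, the J share 24.5% and 26.6% and the *Ighm* share 45.5% and 34.3%, with *Igha* at 36.1% and 60.4% of switched reads. With V segments of at least 5 reads only, the first 3 held 39.7% and 40.02% and the first 10 held 75.5% and 80.6% of V reads. These shifts follow from the reads left out or from gene length.

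Limits are set by depth: 36 to 134 V reads per mouse leave wide intervals for any segment, and 141 of the 147 genes were below the filter. Adding immunoglobulin pseudogenes could not be run, as none are listed.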
